A study of Mus musculus with 4 samples.

Results

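The miR-34 and miR-449 family was followed among the short RNAs bound to Ago proteins (R-sRNAs) in the mouse brain. Its members were taken by name: mmu-miR-34a-5p, mmu-miR-34b-5p, mmu-miR-34b-3p, mmu-miR-34c-5p, mmu-miR-34c-3p and mmu-miR-449a-5p, where mmu stands for the mouse. All 6 names were found, among 1029 miRNA names, and they held 214 of the 40045 sequences with a miRNA name and of the 85704 sequences in all. The groups were young (2 months) and old (18 months) male C57BL/6J (BL6) mice bought from a supplier, for which no transgene or treatment is named, and each age had 2 libraries made from cortex and hippocampus combined. A GW182 peptide, which binds Ago proteins, was used to pull down the RNA-induced silencing complex (RISC), so a level here is a share of Ago-bound RNA and not of all RNA in the tissue. Nothing in the labels tells whether a library came from 1 animal or from several, so each p-value measures only the spread between these libraries, and fewer cells of a type cannot be told apart from less miRNA per cell.

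A miRNA guides Ago proteins to mRNAs through its seed, the bases from position 2 of its 5′ end on. The miR-34 genes are direct targets of the tumor suppressor p53, and miR-34 lowers cell cycle and survival genes such as Cdk6, Met and Bcl2. miR-34a is the main member in the brain, whereas miR-34b, miR-34c and miR-449 are best known from multiciliated cells, where they are needed to make motile cilia. In Death Induced by Survival gene Elimination (DISE), short RNAs with certain G-rich 6mer seeds kill cells by silencing survival genes, and the miR-34 seed is among the toxic ones. The 6mer seed viability of a sequence is the viability, in percent of control, of cells given a short RNA with that 6mer seed (positions 2 to 7), averaged by the authors over 3 mouse cell lines. A low value therefore stands for a toxic seed.

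The mature sequences are given because the seed splits the family into a toxic and a tolerated arm. They are the RefSeq entries of GRCm38.p6 for the 5 of 6 members matched there and for the relative miR-449c-5p, written 5′ to 3′ with positions 2 to 8 in capitals.

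miR-34a-5p: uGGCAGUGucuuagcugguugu
miR-34b-5p: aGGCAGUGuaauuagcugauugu
miR-449a-5p: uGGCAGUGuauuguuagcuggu
miR-449c-5p: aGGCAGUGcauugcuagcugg
miR-34b-3p: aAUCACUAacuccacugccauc
miR-34c-3p: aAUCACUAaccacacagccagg

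The 5p sequences shared GGCAGUG at positions 2 to 8 and the 3p sequences shared AUCACUA. Of the 22 positions compared, miR-34b-3p and miR-34c-3p were identical at 17, with the first 10 alike. Compared in the same way, position by position without gaps, miR-34a-5p and miR-449a-5p were identical at 15 of 22 positions. For miR-34a-5p and miR-34b-5p it was 11 of 22. An inserted or missing base puts all later positions out of register, so these counts do not rank how alike the arms are. The commonest read of each of these 5 members was the RefSeq sequence itself.

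The members come from 3 places in the genome (GRCm38). The mature miR-34a-5p lies on chromosome 4, from 150068473 to 150068494 on the plus strand, where its hairpin overlaps an exon of Gm37795, a transcript still to be experimentally tested. On chromosome 9 the mature miR-34b-5p lies from 51103610 to 51103632, miR-34b-3p from 51103574 to 51103595 and miR-34c-3p from 51103044 to 51103065. All are on the minus strand, within an intron of Btg4, a gene of the plus strand. miR-449a-5p lies on chromosome 13, from 113037549 to 113037570 on the plus strand, in an intron of Cdc20b, a gene of the same strand.

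The libraries held 9067007 to 11388999 reads, and 3 reads were worth 0.263 to 0.331 CPM (reads scaled to the same total in each library), far below every member. Neuronal miRNAs (miR-124-3p, miR-9-5p, miR-128-3p and miR-138-5p) summed to 178482 to 208820 CPM in this tissue labelled as cortex and hippocampus. miRNAs listed for other cell types were also present: the 3 of oligodendrocytes summed to 6183 to 11603 CPM, the 2 of smooth muscle to 4915 to 6559 CPM, the 4 of microglia and other immune cells to 427 to 737 CPM, the 11 of choroid plexus and the Htr2c intron to 2342 to 3085 CPM, and the 2 of red blood cells found under the names searched, of 3, to 1698 to 3374 CPM. The 2 endothelial miRNAs summed to 11472 to 12243 CPM at 2 months and 5422 to 8990 CPM at 18 months, and of these lists only miR-126a-3p was called between the ages at an unadjusted p under 0.05, where 16.2% of all tested miRNAs were (log2 difference -1.15, limma adjusted p = 0.266). The other endothelial miRNA, miR-126a-5p, had 2501 to 3000 CPM (log2 difference -0.07, limma adjusted p = 0.901), with overlapping ages. A list for ciliated epithelium consisted of miR-449a-5p, miR-449c-5p, miR-34b-5p and miR-34c-5p themselves and so tells nothing beyond their own levels.

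miR-34a-5p, the product of the solitary miR-34a gene, was the most abundant member and also the one with the widest spread at 2 months. This member had 1225 and 547 CPM in the young libraries and 549 and 747 CPM in the old. Replicate 1 at 2 months stood above the rest and replicate 2 lay at the level of the lowest 18-month library, so the ages overlapped. Those 2-month replicates differed by 1.16 on the log2 scale, more than in 96.3% of the tested miRNAs, where the median difference was 0.26. The 12839 and 6233 reads behind these values make counting error far smaller than that gap.

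miR-34c-5p came next and kept close at 2 months, with 277 and 290 CPM, but spread to 188 and 314 CPM at 18 months. Its lowest and highest libraries were thus both of 18 months. miR-34b-5p, from the same cluster, had 70.5 and 64.7 CPM in the young libraries and 42.2 and 110 CPM in the old, and again both extremes were 18-month libraries. Its 18-month replicates differed by 1.37 on the log2 scale, more than in 98.5% of the tested miRNAs. In replicates 1 and 2 at 18 months, the list of choroid plexus and Htr2c intron miRNAs also had a lower and a higher sum, 2392 and 3085 CPM, but at 2 months its sums were 2342 and 2835 CPM while miR-34b-5p had 70.5 and 64.7 CPM. Most of that sum was miR-204-5p, with 2100 to 2786 CPM. In the library order of the miR-34b-5p values, miR-1298-5p of the same list had 76.8, 59.1, 22.8 and 117 CPM and ranked the libraries alike. The other tested members of the list did not. In that library order miR-1298-3p had 17.7, 9.57, 8.79 and 10.3 CPM, and miR-1264-3p 21.3, 12.8, 11.1 and 13.9 CPM. miR-1264-5p had 12.8, 26.9, 6.05 and 12.9 CPM, and miR-204-3p 80.8, 62.0, 65.1 and 94.6 CPM. For miR-448-3p the values were 15.2, 18.1, 10.2 and 23.5 CPM. The part of choroid plexus cells in the miR-34b-5p levels was not tested. Part of the split between miR-34b-5p and miR-34c-5p is uncertain, since a form that differed from the commonest miR-34b-5p read at 1 position was named miR-34c-5p and held 378 reads.

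The 3p arms had the least spread. miR-34b-3p had 65.4 and 72.9 CPM in the young libraries and 54.0 and 67.4 CPM in the old. miR-34c-3p had 52.9 and 55.8 CPM in the young libraries and 59.6 and 54.3 CPM in the old, a ratio of highest to lowest of 1.13 against 2.24 for miR-34a-5p. Neither arm kept the ages apart.

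miR-449a-5p, the member from the Cdc20b intron, was the rarest, with 19.5 and 21.6 CPM in the young libraries and 13.5 and 19.0 CPM in the old. Both 18-month libraries lay below both 2-month libraries, although the gap between 19.5 and 19.0 CPM was small. Its neighbor miR-449c-5p, which has the same seed, had only 1.81, 2.02, 1.70 and 0.993 CPM in the same order of libraries and was too low to test.

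By mean CPM over the 4 libraries the order was miR-34a-5p, miR-34c-5p, miR-34b-5p, miR-34b-3p, miR-34c-3p and miR-449a-5p, at ranks 126, 200, 295, 306, 322 and 419 of the 1029 names. miR-34a-5p stood above miR-34c-5p in every library, by a ratio of 1.89 to 4.42. The levels of miR-34b-5p, miR-34b-3p and miR-34c-3p overlapped across libraries and cannot be ordered, whereas miR-449a-5p lay below them in every library.

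**Figure D1:**
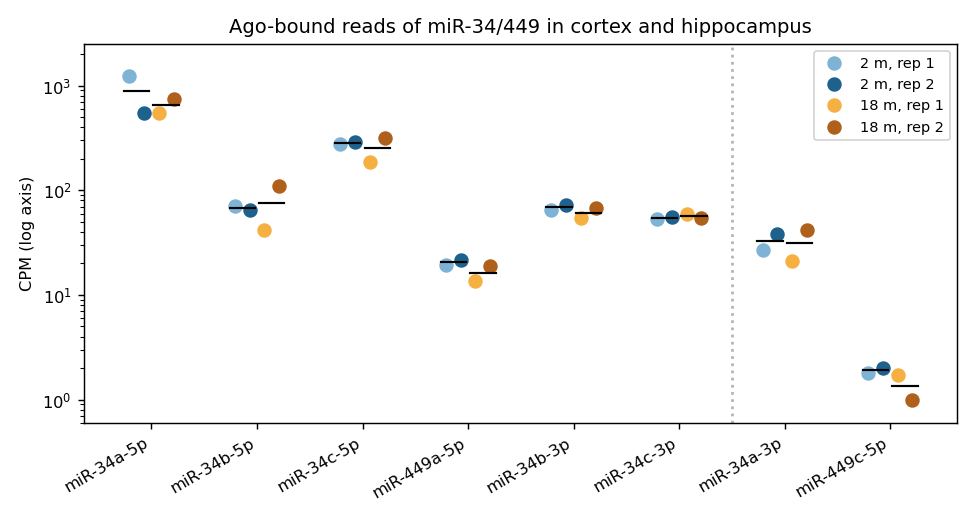
CPM of each member in each library on a log axis, with a black line at the mean of each age. The relatives miR-34a-3p and miR-449c-5p stand right of the dotted line. miR-34a-5p is highest (547 to 1225 CPM), miR-449a-5p is the lowest member (13.5 to 21.6 CPM), and the points of the ages overlap for every member but miR-449a-5p.

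All 6 members passed the filter on low values. To test whether the family differed between the ages, limma was fitted to log2(CPM + 1) of all 456 miRNAs with a mean of at least 10 CPM. None of the 6 members passed an unadjusted p under 0.05, where 16.2% of all tested miRNAs did, and edgeR and DESeq2 also called 0. At an adjusted p under 0.05 the members called were again 0, against 0.219% of the tested miRNAs. Of the members, 1 of 6 had ages that did not overlap, whereas 53.5% of all tested miRNAs did. The members' adjusted p-values in limma ran from 0.520 to 0.982.

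miR-34a-5p averaged 886 ± 479 CPM at 2 months and 648 ± 140 CPM at 18 months (SD, n = 2 per age). Its difference on the log2 scale was -0.35 (SE 0.40, 95% interval from -1.33 to 0.62, limma adjusted p = 0.646). This result was set by the young libraries: without replicate 1 at 2 months the difference was 0.23, and without replicate 2 at 2 months it was -0.93 (limma unadjusted p = 0.0159). The interval includes a fall by a factor of 2, which these libraries could not tell from no change.

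The differences of the other members did not pass an unadjusted p under 0.05 in limma either. That of miR-449a-5p was larger against its error than that of miR-34a-5p. miR-34c-5p averaged 284 ± 9.41 CPM in young and 251 ± 89.6 CPM in old mice (SD, n = 2 per age). It differed by -0.22 on the log2 scale (SE 0.29, 95% interval from -0.92 to 0.47, limma adjusted p = 0.698). miR-34b-5p averaged 67.6 ± 4.08 and 76.2 ± 48.2 CPM. For this member the difference was 0.02 (SE 0.44, interval from -1.05 to 1.08, limma adjusted p = 0.982). It became 0.70 without replicate 1 at 18 months (limma unadjusted p = 0.0403) and -0.67 without replicate 2 at 18 months, and without replicate 2 at 2 months it was -0.04, so its sign rests on single libraries of either age. miR-449a-5p averaged 20.5 ± 1.52 and 16.2 ± 3.85 CPM and differed by -0.34 (SE 0.29, interval from -1.04 to 0.37, limma adjusted p = 0.520).

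The 3p arms had the narrowest intervals. miR-34b-3p averaged 69.2 ± 5.27 CPM in young and 60.7 ± 9.47 CPM in old mice, and miR-34c-3p 54.3 ± 2.00 and 56.9 ± 3.75 CPM (SD, n = 2 per age). The log2 difference was -0.19 for miR-34b-3p (SE 0.23, interval from -0.76 to 0.38) and 0.06 for miR-34c-3p (SE 0.22, interval from -0.47 to 0.60), with limma adjusted p-values of 0.677 and 0.905. Together 4 members had a lower and 2 a higher mean log2 level at 18 months. Their median difference was -0.21, and the median of all tested miRNAs was -0.22. With a rescaling by the median of ratios the latter became -0.01 and miR-34b-3p turned to 0.02, and in edgeR and DESeq2 both miR-34b-3p and miR-34c-5p had a difference above 0.

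**Figure D2:**
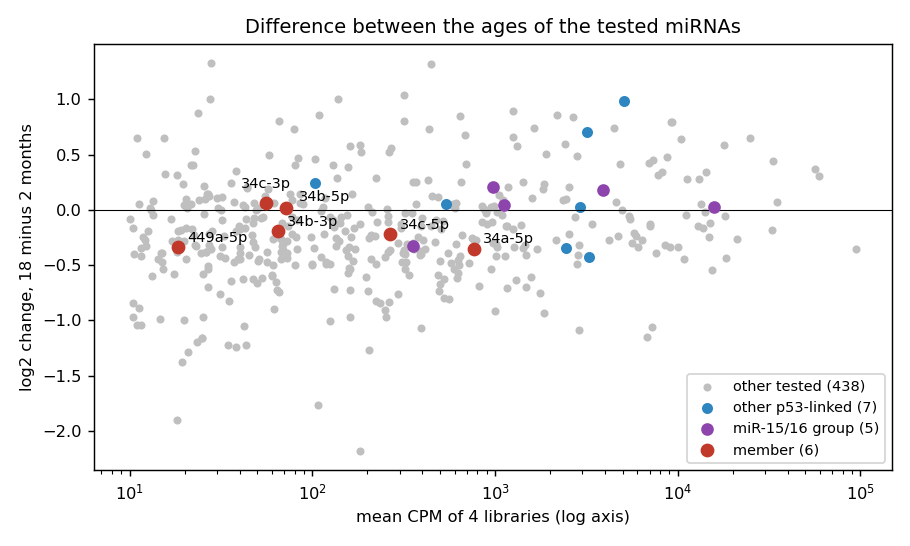
The log2 difference between 18 and 2 months (y axis) against mean CPM (x axis, log scale) for the 456 tested miRNAs, 1 point each. The 6 members (red) lie between -0.35 and 0.06, within the gray cloud whose median is -0.22. The p53-linked miR-141-3p and miR-200c-3p are the highest blue points.

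Because p53 drives several miRNAs, a list of 10 other p53-linked miRNAs was set beside the family. Of these, 9 were tested and 2 rose with age at an unadjusted p under 0.05, beside 16.2% of all tested miRNAs. None fell, and their median log2 difference was 0.06. miR-200c-3p, which represses Zeb1 and Zeb2 in epithelial cells, had 2102 and 2737 CPM in the young libraries and 4362 and 3506 CPM in the old (log2 difference 0.70, SE 0.24, limma adjusted p = 0.266). Its cluster partner miR-141-3p had 2446 and 4522 CPM in the young libraries and 5525 and 7804 CPM in the old (log2 difference 0.98, SE 0.35, limma adjusted p = 0.266). Neither passed the adjusted threshold, and with the replicate number as a block 1 of the 10 was called. Without replicate 1 at 2 months 0 were called, and without either 18-month library 1. miR-200c-3p and miR-141-3p belong to the miR-200 family, and relatives outside the p53 list, named after their values were seen, had log2 differences of a like size, 0.65 for miR-200a-3p, 0.79 for miR-200b-3p and 0.79 for miR-429-3p. The remaining tested members of the list, miR-192-5p, miR-194-5p, miR-107-3p, miR-143-3p, miR-145a-5p, miR-15a-5p and miR-16-5p, had limma unadjusted p-values of 0.0868 or more. miR-215-5p, at 0.263 to 1.99 CPM, was too low to test.

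The seeds, rather than the names, decide the toxicity assigned to a read. GGCAGU, the commonest 6mer seed of all 4 members of the 5p arm, had a viability of 25.1%, and 10.6% of the 3925 seeds in the data were less viable. AUCACU, the commonest seed of both 3p members, had a viability of 69.9%. A single hairpin such as miR-34b or miR-34c thus gave rise to a toxic and a tolerated strand. This did not hold for miR-34a, whose 3p arm, outside the members, had the seed AUCAGC with a viability of 23.1%. Over the whole data set the seed GGCAGU belonged to the family: 97.9% of its reads carried a member's name.

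Reads with the seed GGCAGU amounted to 1546 and 901 CPM in the young libraries and 765 and 1154 CPM in the old, which ranked it 86th among all seeds. As with miR-34a-5p, replicate 1 at 2 months was highest and the ages overlapped. The log2 difference was -0.33 (SE 0.32, 95% interval from -1.09 to 0.43, limma adjusted p = 0.651 over 952 seeds), where 15.3% of the tested seeds passed an unadjusted p under 0.05. Leaving out replicate 1 at 2 months gave 0.06, and leaving out replicate 2 at 2 months gave -0.72 (limma unadjusted p = 0.0213). Reads with the seed AUCACU stayed between 95.9 and 108 CPM (log2 difference -0.04, SE 0.21, limma adjusted p = 0.948).

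Even the toxic seed took a small share of the RISC. The whole family made up 0.171% (95% Wilson interval 0.169 to 0.174) and 0.105% (0.103 to 0.107) of the reads at 2 months, and 0.0906% (0.0888 to 0.0924) and 0.131% (0.129 to 0.134) at 18 months. The libraries of 1 age differed by far more than these counting intervals, and the difference between the ages of -0.027 percentage points gave an exact permutation p of 0.667, where 0.333 is the smallest p that 2 libraries against 2 allow. Reads at or below a viability of 25.1% made up 2.60% to 3.76% of each library, and the family supplied 2.35% to 4.55% of those.

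The 5p arms supplied 93.1% and 87.8% of the young and 87.5% and 90.7% of the old family reads, and miR-34a-5p alone 71.6%, 52.0%, 60.6% and 56.9% in that order. The mean viability of the family's reads was 29.9% and 31.9% in the young libraries and 32.6% and 30.9% in the old. Averaged over all reads of the same libraries it was 57.7% to 58.4%. The difference between the ages in the family mean was within the spread of the libraries (0.857 percentage points, exact permutation p = 0.667). For the 5p arms alone the mean viability was 26.7% and 26.3% in the young libraries and 26.9% and 26.8% in the old. Here the ages did not overlap, by a small gap (difference 0.299 percentage points, exact permutation p = 0.333, the smallest possible).

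For comparison, the miR-15/16 group, whose seed AGCAGC had a viability of 37.8%, summed to 20685 to 23060 CPM in the same libraries. None of the 5 miRNAs listed for it passed an unadjusted p under 0.05 in limma (background 16.2%), and their median log2 difference was 0.04. miR-322-5p and miR-503-5p, outside that list, had the same seed viability of 37.8%. Their log2 differences were -0.83 and -1.16, at mean levels of 263 and 25.0 CPM. The listed group, which also represses Bcl2, was thus far more abundant than miR-34 in the RISC, with a less toxic seed.

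**Figure D3:**
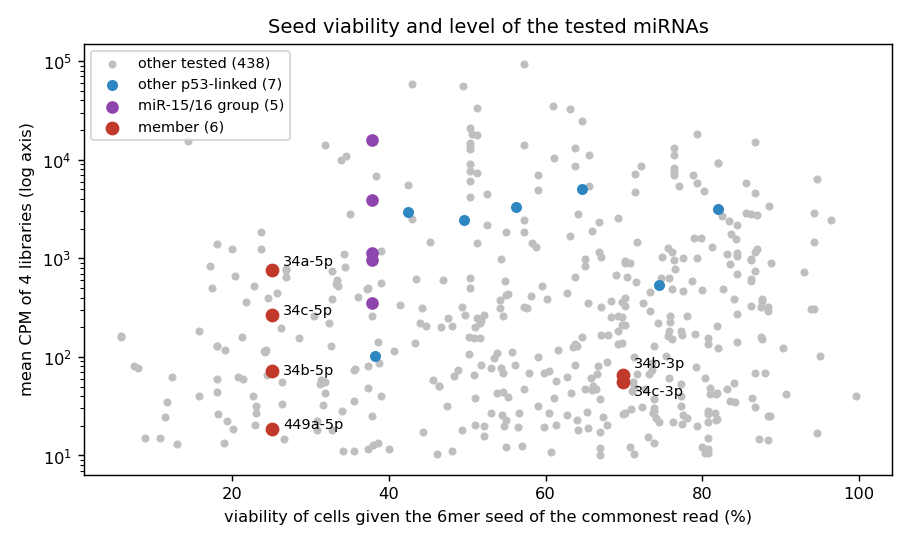
Viability of the 6mer seed of the commonest read (x axis, in percent of control) against mean CPM (y axis, log scale) for the 456 tested miRNAs. The 5p members stand in a column at 25.1%, the 3p members at 69.9% and the miR-15/16 group at 37.8% with higher levels.

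How firmly a member kept its seed depended on where its reads began, since a start shifted by 1 base gives another seed. The commonest seed held 95% to 96.4% of miR-34a-5p reads, 98.7% to 99.1% of miR-34c-5p reads and 95.8% to 100% of miR-449a-5p reads. These 3 members entered the RISC almost wholly with the toxic seed. The other members were more mixed.

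Of the miR-34b-5p reads, 21.8% and 30.8% in the young libraries and 36.3% and 27.8% in the old began 1 base upstream. Such reads had the seed AGGCAG with a viability of 44.4% instead of 25.1%. The commonest reads of both starts follow as sequenced, with positions 2 to 8 in capitals.

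miR-34b-5p, RefSeq start: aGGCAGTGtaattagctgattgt
miR-34b-5p, 1 base upstream: tAGGCAGTgtaattagctgatt
miR-34b-5p, 1 base upstream and 1 base longer: tAGGCAGTgtaattagctgattg

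The last of these was the only member sequence called between the ages among the 53 with a mean of at least 1 CPM, while 10.1% of all tested sequences were called at an unadjusted p under 0.05. It had 2.77 and 4.65 CPM in the young libraries and 6.43 and 10.5 CPM in the old, without overlap. The log2 difference was 1.0 (SE 0.38, limma unadjusted p = 0.0259, adjusted p = 0.434). The number of member sequences called was 0 at a minimum of 10 CPM, 2 without either 18-month library, and 4 and 6 without replicates 1 and 2 at 2 months. For the share of miR-34b-5p reads with the commonest seed the ages overlapped, with an exact permutation p of 0.667.

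Reads of the 3p arms shifted the other way. Of miR-34b-3p reads, 20.3% to 26.6% began 1 base downstream, and of miR-34c-3p reads 12.4% to 18.4%. Both then had the seed UCACUA, with a viability of 79.9%. For miR-34a-5p a downstream start gave 2.53% to 3.98% of the reads the seed GCAGUG, with a viability of 70.0%. Summed over the libraries, every other seed that held over 1% of a member's reads had a higher viability than the commonest seed of that member. Over the 6 members, no difference between the ages in the share with the commonest seed passed its test (exact permutation p of 0.667 to 1, Benjamini-Hochberg adjusted p = 1 for all).

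**Figure D4:**
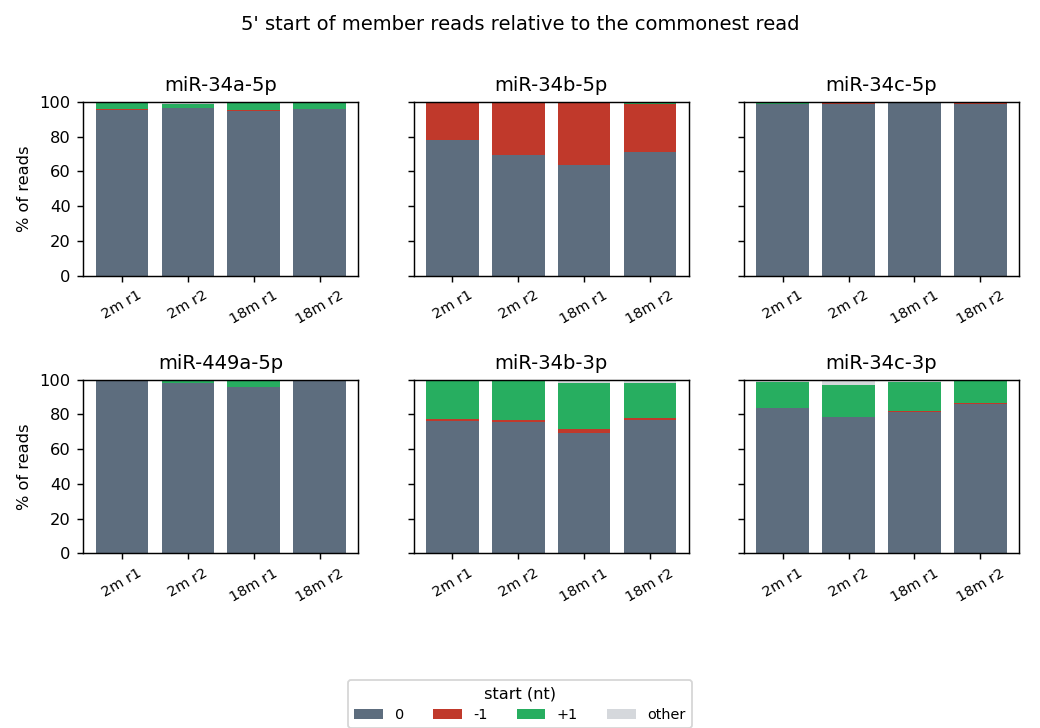
Stacked bars of the share of reads (y axis, in percent) by 5′ start relative to the commonest read, per member and library (x axis). Starts 1 base upstream (red) make up 21.8% to 36.3% of miR-34b-5p, and starts 1 base downstream (green) 20.3% to 26.6% of miR-34b-3p, while miR-34c-5p holds to its commonest start.

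Arms of the same hairpin were loaded unequally. miR-34a-5p had 14.3 to 45.9 reads for each read of miR-34a-3p, which lies outside the list of members and was chosen after its values were seen. The ratio of miR-34c-5p to miR-34c-3p was 5.23 and 5.21 in the young libraries and 3.15 and 5.79 in the old. For miR-34b the arms were near balance, with ratios of 1.08 and 0.888 in the young libraries and 0.781 and 1.64 in the old. Neither difference in balance between the ages passed its test (exact permutation p = 1 for both).

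The 3′ ends varied more than the seeds. Of miR-34a-5p reads 51.2% had 22 nucleotides (nt) and 29.4% had 23 nt, while 23 nt was the main length of miR-34b-5p (59.9%) and miR-34c-5p (73.4%). In miR-34b-3p and miR-34c-3p, 68.3% and 66.0% of the reads had 22 nt. Some reads departed from the hairpin sequence only near the 3′ end, by added or by changed bases, which were not told apart. They made up 12% of miR-34a-5p, 7.13% of miR-34c-5p, 4.11% of miR-34b-5p, 9.01% of miR-34b-3p, 11.6% of miR-34c-3p and 18.0% of miR-449a-5p reads. The miR-34c-5p share is uncertain. Of its 787 such reads, 378 were the form that differs at 1 position from the commonest miR-34b-5p read. These end bases were mostly A alone in miR-34c-3p (9.21% of reads) and miR-449a-5p (12.4%), and mostly U alone in miR-34b-3p (7.19%, read as T).

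The ratio of reads lacking the last base of the commonest read to that read differed between the ages in several members at an unadjusted p under 0.05. This comparison was chosen after the length distributions had been seen. For miR-34a-5p there were 7.19 and 11.7 shortened reads per 100 commonest reads at 2 months and 21.2 and 16.3 at 18 months. miR-34b-5p had 14.1 and 14.2 in the young libraries and 43.9 and 23.2 in the old, and miR-34c-5p 16.1 and 12.8 in the young libraries and 31.3 and 23.0 in the old. In these 3 miRNAs both old libraries lay above both young ones.

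miR-34c-3p went the opposite way, with 10.4 and 10.9 shortened reads per 100 at 2 months and 4.65 and 6.62 at 18 months. miR-34b-3p, with 10.1 to 13.7, and miR-449a-5p, with 48.2 to 80.6, overlapped between the ages. Thus 4 of 6 members did not overlap, where 35.8% of the 466 miRNAs with both forms at a mean of at least 1 CPM did not.

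In limma on the log2 ratio, those 4 members passed an unadjusted p under 0.05, whereas 7.08% of the 466 miRNAs did. The log2 ratio was higher at 18 months by 1.02 in miR-34a-5p (SE 0.38, limma unadjusted p = 0.0406 and adjusted p = 0.654), by 1.16 in miR-34b-5p (SE 0.41, limma unadjusted p = 0.0318 and adjusted p = 0.654) and by 0.90 in miR-34c-5p (SE 0.34, limma unadjusted p = 0.0426 and adjusted p = 0.654). It fell by 0.905 in miR-34c-3p (SE 0.34, limma unadjusted p = 0.0380 and adjusted p = 0.654). The median of all 466 was 0.10. After adjustment 0 of the 466 passed in limma, and 33 passed unadjusted. With the replicate number as a block 1 of the 6 members was called, 0 without replicate 1 of either age, 1 without replicate 2 at 2 months and 2 without replicate 2 at 18 months.

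**Figure D5:**
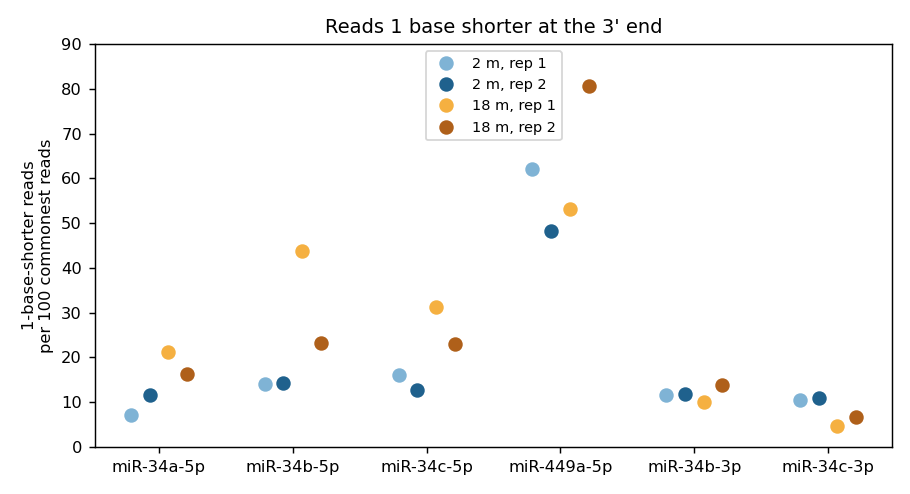
Number of reads 1 base shorter at the 3′ end per 100 commonest reads (y axis) for each member and library (x axis). The 18-month points lie above the 2-month points for miR-34a-5p, miR-34b-5p and miR-34c-5p, below them for miR-34c-3p, and overlap for the others.

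The miRNAs with the most similar profile were sought for each member by the root mean square difference of centered log2(CPM + 1) over the 4 libraries, which share depth and normalization. For miR-34a-5p they were miR-592-5p (0.083), miR-218-5p (0.143) and miR-1298-3p (0.150). miR-592-5p had 241 and 125 CPM in the young libraries and 110 and 153 CPM in the old, so the high replicate 1 at 2 months was not particular to miR-34a-5p. For miR-34b-5p they were miR-448-3p (0.161), which is in the list of choroid plexus and Htr2c intron miRNAs, miR-99a-3p (0.206) and miR-497a-5p (0.209).

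The most similar profiles to miR-34c-5p were those of miR-21a-3p (0.067), miR-672-3p (0.082) and miR-135a-5p (0.090), and to miR-449a-5p those of miR-1a-3p (0.028), miR-142a-5p (0.037) and miR-485-3p (0.064). miR-34b-3p was closest to miR-181c-5p (0.056) and miR-34c-3p to miR-877-3p (0.031). No member was among the 3 nearest of another. The closest were miR-34b-3p to miR-449a-5p, at rank 8, and miR-449a-5p to miR-34c-5p, at rank 10, whereas miR-34a-5p ranked 195th or later for every other member, which are all from other loci.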

How the data were processed

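R-sRNAs were sequenced from 4 libraries of cortex and hippocampus. The authors trimmed the reads (Trim Galore, version not given in the sources used here), discarded rare sequences, named the others by BLAST against mouse small RNAs and deposited CPM for each sequence of 15 to 33 nt, together with a score, the 6mer seed viability. The deposited table also has its miRNA names and hairpins as text. No sequence had under 4 reads in all. Whole reads were recovered from the CPM steps, and 100% of the nonzero values were whole within 0.0005 CPM.

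CPM were summed by miRNA name and by seed. Two-sided tests of age, with no other covariate, were made in limma 3.58.1 (R 4.3.3, trend on intensity) on log2(CPM + 1), for miRNAs and seeds averaging at least 10 CPM and sequences averaging at least 1 CPM. A fold change on this scale understates the change of low miRNAs. The ratio of shortened to full-length reads was fitted as log2 with 0.1 CPM added and no trend. edgeR 4.0.16 and DESeq2 1.42.0 on recovered reads were alternatives. Values over the whole family were compared by exact permutation tests (SciPy 1.17.1). Wilson intervals cover counting error only. The scripts were tested on simulated data.

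The members and lists were chosen with earlier results of these data known. Named were all members, the called members of each list, the 3 most similar miRNAs and the sequences shown; other names were chosen after their values were seen. No per-sample column was left unused.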

Additional observations from a re-analysis of the deposited data

Results flagged for a closer look

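Beside the named reads, 873 reads of 69 sequences were given to the hairpins of miR-34a, miR-34b, miR-34c and miR-449a without a mature name. This put them outside the comparisons by miRNA name above, but not outside those by seed. They amounted to 26.7 and 20.4 CPM in the young libraries and 13.2 and 24.5 CPM in the old, above the level of 3 reads in every library. Of these reads, 85.7% had the seed GGCAGU. The miR-34c hairpin supplied 487, miR-34a 281, miR-34b 105 and miR-449a 0.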

How the results depend on the processing

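With 2 libraries per age the spread between replicates exceeded counting error for the family share and for miR-34a-5p at 2 months. For sequences near 1 CPM the limit set by depth was not compared with it. Small differences changed sign with the tool or the scale: the log2 difference of miR-34b-3p was 0.0194 in DESeq2, 0.0308 in edgeR and 0.0168 after the median of ratios, that of miR-34c-5p 0.0278 in DESeq2 and 0.0392 in edgeR (it stayed below 0 after the median of ratios), and that of the seed AUCACU 0.10 in edgeR and 0.0790 after the median of ratios. Of the member sequences, 0 were called at a minimum of 10 CPM and 5 with no filter. The cause of these changes was not tested.

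Leaving out each library in turn gave log2 differences of -0.93 to 0.23 for miR-34a-5p, -0.67 to 0.70 for miR-34b-5p, -0.59 to 0.15 for miR-34c-5p, -0.00158 to 0.13 for miR-34c-3p, -0.72 to 0.0606 for the seed GGCAGU and -0.12 to 0.0497 for AUCACU. miR-34b-3p and miR-449a-5p kept their sign. The members called were 0 to 1, the member sequences called 2 to 6, and the p53-linked miRNAs called 0 to 2, with 0 without replicate 1 at 2 months. For the ratio of shortened reads 0 to 2 members were called. The log2 ratio ran from -0.19 to 0.23 in miR-34b-3p and from -0.0309 to 0.55 in miR-449a-5p, while that of the 4 called members kept its sign.

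The labels give same-numbered libraries nothing in common but the number. Deviations of these libraries from the group means correlated at 0.18 over the 456 miRNAs. With a replicate block 0 members, 1 member sequence and 1 p53-linked miRNA were called, and 1 member for the ratio of shortened reads, an alternative added after seeing the data. The block changed no other call.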

Other observations

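miR-34b-5p and miR-34c-5p had a position at which all 3 other bases were found, noticed after the values were seen. At position 17 of the commonest miR-34b-5p read, counted from 1 at its 5′ end, T17C, T17G and T17A reached 2.10%, 1.56% and 1.22% of the reads of that sequence, and at the same position of miR-34c-5p the other bases reached 1.66%, 1.34% and 1.07%. Their sums were 4.87% and 4.06%, against a median of 0.071% at position 17 over 273 miRNAs with a mean of at least 100 CPM. None of these forms carried a mature name. Of 277 miRNAs examined, 6 had a position where each of the 3 other bases reached 1% of the commonest read. For the other 4, let-7d-3p, miR-323-3p, miR-181c-3p and a name that joins miR-486a-5p and miR-486b-5p, it was position 22, the last of the read. What gave rise to these forms was not tested.

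miR-34a-3p, the other arm of miR-34a, had 26.7 and 38.2 CPM in the young libraries and 21.3 and 41.9 CPM in the old. Its seed AUCAGC had a viability of 23.1%, lower than that of the 5p arm.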
